A study of Mus musculus with 2 samples.

Results

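Natural killer (NK) cells from MC38 tumours of fasted mice were compared with NK cells from MC38 tumours of mice fed ad libitum. Cells were taken where the authors' hashtag classification gave them to a single population and the deposited tag list named that population as fasted tumour or ad libitum tumour. This rule gave 801 fasted cells and 46 ad libitum cells, 847 of the 7479 cells given to a single population, or 11.3%. A further 95 cells from tumours of refed mice are cited only where their level helps to place the others.

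The series holds droplet-based single-cell RNA sequencing of NK cells from bone marrow, spleen and tumour, with cells counted by unique molecular identifiers (UMIs). Tumours were subcutaneous grafts of MC38, a mouse colon carcinoma line, in C57BL/6 mice aged 12 weeks. Tumour tissue was digested with collagenase and DNase, and lineage-negative cells positive for NK1.1 and CD49b were sorted. Fasted mice went through cyclic fasting and ad libitum mice had free access to food. Apart from diet, the labels give both populations the same tumour line, mouse strain and sort. All 10 populations carried hashtag antibodies and shared 1 lane, so each population was 1 sample. How many mice stood behind each population is not stated by the labels. No p-value was computed, and every interval below covers counting error only, not differences between mice.

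The hashtags that set the populations apart are 15-base antibody barcodes, shown because every comparison rests on which barcode a cell carried:
fasted tumour: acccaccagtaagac
ad libitum tumour: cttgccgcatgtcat
These barcodes differed at 12 of 15 positions, and the 45 pairs of hashtags of the study differed at 7 to 14 positions.

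NK cells are innate lymphocytes that kill stressed or transformed cells by releasing granules that hold perforin and granzymes. Activated NK cells raise glycolysis and granzyme synthesis, while resting cells are kept quiet by regulators such as the transcription factor Klf2. In tumours, NK cells meet cytokines such as TGF-beta that can move them toward a tissue-resident state. Fasting raises circulating glucocorticoids and fatty acids and lowers glucose and insulin.

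Both populations carried NK genes, but they differed in size and depth. At least 4 of 12 NK markers were detected in 766 fasted cells (95.6%) and in 40 ad libitum cells (87.0%). Summed over the list, NK markers averaged 172 UMIs per 10,000 in fasted cells and 135 UMIs per 10,000 in ad libitum cells, with 9 of 12 markers higher in fasted cells. Summed UMIs were 6178668 in fasted cells and 571789 in ad libitum cells. The median depth was 5346 UMIs per cell in fasted cells (quartiles 3825 and 7943) and 3827.5 in ad libitum cells (quartiles 1440 and 20080). Ad libitum cells were thus spread toward both ends of depth, since 9.74% of fasted cells and 30.4% of ad libitum cells had fewer than 2000 UMIs, and 17.5% of fasted cells and 37.0% of ad libitum cells had more than 10000. Median mitochondrial shares were 2.27% in fasted cells and 2.38% in ad libitum cells. A larger share of ad libitum cells held at least 4 markers of another cell type, 9 of 46 against 63 of 801 fasted cells. The macrophage list marked 25 fasted cells (3.12%) and 4 ad libitum cells (8.70%). The T cell list marked 20 fasted cells (2.50%) and 4 ad libitum cells (8.70%). Its sums were alike, however, at 9.16 UMIs per 10,000 in fasted cells and 8.54 in ad libitum cells. Of its 13 markers, 2 had 0 UMIs in fasted cells and 7 had 0 UMIs in ad libitum cells. These shares of marked cells were not matched for depth, so they do not show more T cells in either population.

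The deposited clusters split the populations. Fasted cells lay mainly in clusters 0 and 8, which held 523 of 801 fasted cells (65.3%, exact binomial interval 61.9% to 68.6%) and 7 of 46 ad libitum cells (15.2%, 6.34% to 28.9%). Ad libitum cells lay mainly in clusters 7 and 11, which held 105 fasted cells (13.1%, 10.8% to 15.6%) and 25 ad libitum cells (54.3%, 39.0% to 69.1%). By these sums refed cells lay between, with 34.7% in clusters 0 and 8 (25.3% to 45.2%) and 49.5% in clusters 7 and 11 (39.1% to 59.9%). Both refed intervals overlapped those of ad libitum cells. By single cluster refed cells did not always lie between. They had 5.26% in cluster 8, below both other populations, and 26.3% in cluster 11, above both.

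Cluster 0 took 37.6% of fasted cells (34.2% to 41.0%) and 6.52% of ad libitum cells (1.37% to 17.9%). Its leading genes over the cells of all populations began with Cxcl10, Isg20, Pmepa1 and Ifit3. Cluster 8 took 27.7% of fasted cells (24.6% to 31.0%) and 8.70% of ad libitum cells (2.42% to 20.8%). Genes that led cluster 8 included Isg20, Hilpda, a lipid droplet protein of hypoxic cells, and Vegfa, an angiogenic growth factor. Tumour cells of the 3 feeding states made up 86.0% of the single-population cells of cluster 0, 84.0% of cluster 8 and 95.5% of cluster 11.

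Cluster 11 took 6.37% of fasted cells (4.78% to 8.29%) and 19.6% of ad libitum cells (9.36% to 33.9%). It was led by the granzyme genes Gzmc, Gzmd, Gzme, Gzmf and Gzmg together with Ccl1, Spp1 and Ifitm2. Its share and the levels of these genes below are therefore not separate findings. Cells of cluster 11 were deep, with a median of 26055 UMIs in fasted cells and 26877 in ad libitum cells. Cluster 7 took 6.74% of fasted cells (5.10% to 8.71%) and 34.8% of ad libitum cells (21.4% to 50.2%). Its cells were shallow, with medians of 1660.5 UMIs in fasted cells and 1452.5 in ad libitum cells, and its leading genes included Kdm6b, Ppp1r16b, Apoe and Tnfaip3. Depth therefore moved with cluster, and its part in the shares was not tested. Among all barcodes of the series, the authors' classification called 80.2% of cluster 0, 59.0% of cluster 8, 34.1% of cluster 7 and 62.4% of cluster 11 doublets, and these were left out here.

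**Figure D1:**
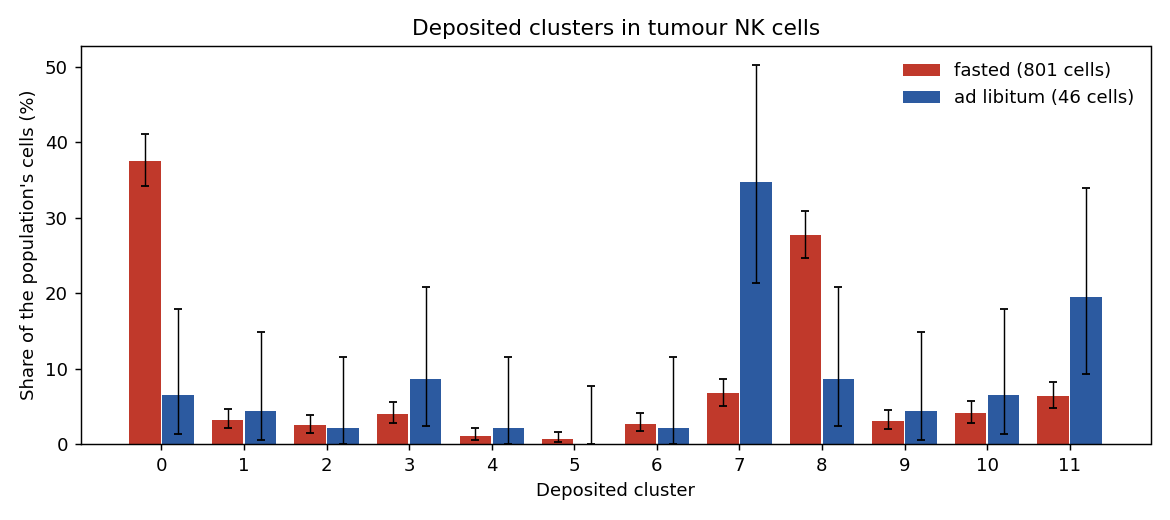
Share of each population's cells (percent, vertical axis) in each deposited cluster (horizontal axis), with fasted cells (801) left of ad libitum cells (46); error bars are exact 95% binomial intervals. Clusters 0 and 8 held 37.6% and 27.7% of fasted cells, and clusters 7 and 11 held 34.8% and 19.6% of ad libitum cells.

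**Figure D2:**
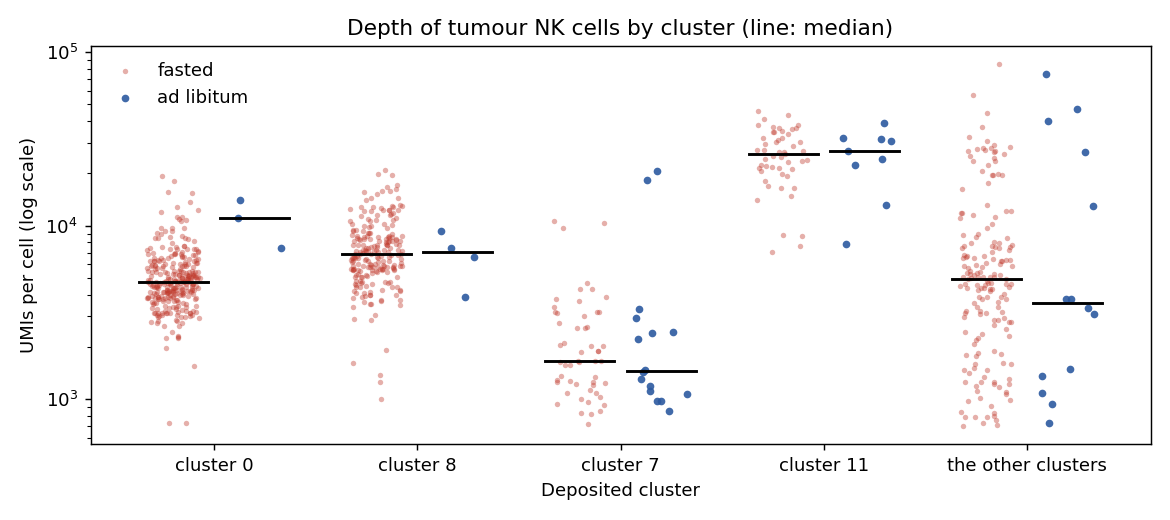
UMIs of each cell (log axis) by deposited cluster, fasted left of ad libitum, with a line at the median. The cluster 7 medians are 1660.5 in fasted cells and 1452.5 in ad libitum cells, and the cluster 11 medians are 26055 in fasted cells and 26877 in ad libitum cells.

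Levels are means over cells of UMIs per 10,000, with each cell scaled to its own total. The log2 ratio sets the fasted mean plus 0.1 against the ad libitum mean plus 0.1, and the interval after it is the log2 binomial interval of the ratio of summed UMIs. Because summed UMIs weight deep cells more, this interval need not hold the ratio of means. A gene was measured at a mean of 0.5 or more in at least 1 of the populations, which 2977 genes reached. In fasted cells 1503 of them (50.5%) were higher and 1474 (49.5%) were lower, and list counts below are read beside these shares. Past 2-fold, 106 were higher in fasted cells (3.56%) and 151 were lower (5.07%), and the median over all measured genes was 0.01. These counts moved with nearly every setting tried. In the 583 fasted and 15 ad libitum cells of 2000 to 10000 UMIs they were 331 higher and 466 lower, and with summed counts they were 34 higher and 42 lower. Of 29 gene lists with at least 5 measured members, 1 had a median higher in fasted cells past 1.5-fold (3.45%) and 1 had a median lower past 1.5-fold (3.45%).

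Granzymes are serine proteases of the cytotoxic granule, and the genes for granzymes B to G lie together on chromosome 14. The genes of granzymes C, D and E were among the lowest in fasted cells relative to ad libitum cells, while granzymes A and B differed by less than 1.5-fold. Of 16 measured genes of the granule list, 1 was higher past 2-fold and 4 were lower, and the list median was -0.13.

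The start regions of Gzmc, Gzmd and Gzmb are shown because Gzmc and Gzmd stood apart from Gzmb in these cells. Each runs from 250 bases before to 50 bases after the RefSeq gene start on the minus strand of GRCm38.p6, and capitals mark the RUNX letters TGTGGT on either strand, or in Gzmb also the STAT letters TTCNNNGAA:
Gzmc, chr14:56234608-56234907: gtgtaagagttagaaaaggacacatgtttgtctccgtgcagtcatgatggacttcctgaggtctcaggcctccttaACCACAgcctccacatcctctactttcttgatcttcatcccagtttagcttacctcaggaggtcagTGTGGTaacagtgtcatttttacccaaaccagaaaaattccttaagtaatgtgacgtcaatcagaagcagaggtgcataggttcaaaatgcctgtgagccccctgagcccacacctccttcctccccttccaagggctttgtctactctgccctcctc
Gzmd, chr14:56132544-56132843: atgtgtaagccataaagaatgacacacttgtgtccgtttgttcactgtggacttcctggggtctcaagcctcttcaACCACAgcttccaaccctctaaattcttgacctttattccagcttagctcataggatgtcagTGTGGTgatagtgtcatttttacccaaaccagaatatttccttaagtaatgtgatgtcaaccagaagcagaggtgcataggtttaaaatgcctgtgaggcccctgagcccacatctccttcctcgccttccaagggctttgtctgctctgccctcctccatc
Gzmb, chr14:56262285-56262584: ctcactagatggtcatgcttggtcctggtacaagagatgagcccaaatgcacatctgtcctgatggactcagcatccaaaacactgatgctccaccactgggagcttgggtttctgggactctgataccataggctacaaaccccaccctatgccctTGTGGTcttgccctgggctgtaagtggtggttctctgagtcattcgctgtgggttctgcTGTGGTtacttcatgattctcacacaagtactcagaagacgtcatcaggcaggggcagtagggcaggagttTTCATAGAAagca
The Gzmc and Gzmd regions were 83.4% identical over a global alignment, whereas Gzmc and Gzmb were 46.5% identical. RUNX factors are transcription factors of cytotoxic lymphocytes, and each of the 3 regions held TGTGGT at 2 places, against at least 1 place in 16.8% of 32851 regions in the table. The STAT letters occurred in Gzmb alone of these 3 and in 8.30% of all regions. A letter match does not show that a factor binds there.

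Gzmc (chromosome 14, 56231441 to 56234656) averaged 25.9 UMIs per 10,000 in fasted cells and 87.8 in ad libitum cells. The log2 ratio was -1.76, with a counting interval of -1.54 to -1.49. Single fasted cells ranged from 0 to 1008 around a median of 0, and ad libitum cells from 0 to 490 around a median of 0.94. The populations overlapped over nearly their whole range, and what differed was how many cells held high levels: the upper quartile was 3.66 in fasted cells and 191 in ad libitum cells. After each cell was thinned to 1500 UMIs, Gzmc was detected in 28.3% of 746 fasted cells (25.1% to 31.7%) and in 59.4% of 32 ad libitum cells (40.6% to 76.3%). The same shares before thinning were 49.3% and 75.0%, at median depths of 5599.5 UMIs in fasted cells and 12028 in ad libitum cells. Among 33 cells of the series with at least 4 macrophage markers, which do not make granzyme C, the thinned share was 12.1%, at a median depth of 10543.

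Most of the Gzmc level came from cluster 11, which gave 72.3% of the fasted mean and 65.1% of the ad libitum mean. Within cluster 11 the means were 294 in 51 fasted cells and 292 in 9 ad libitum cells, a log2 ratio of 0.01. In the shallow cluster 7 the means were 3.66 in 54 fasted cells and 13.5 in 16 ad libitum cells, and in cluster 8 they were 12.4 in 222 fasted cells and 34.9 in 4 ad libitum cells. The level was thus alike inside cluster 11 and lower in fasted cells inside clusters 7 and 8. The refed mean over all cells was 127.

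Gzmd (chromosome 14, 56129556 to 56132608) averaged 1.26 UMIs per 10,000 in fasted cells and 12.4 in ad libitum cells. Its log2 ratio was -3.20 (counting interval -3.07 to -2.91). Gzmd was detected in 59 fasted cells and 12 ad libitum cells, and 1 ad libitum cell held 42.2% of that population's UMIs. Gzme (chromosome 14, 56117626 to 56120625) averaged 0.71 in fasted cells and 5.20 in ad libitum cells, a log2 ratio of -2.71 (-3.28 to -3.04), with 51.1% of the ad libitum UMIs in 1 cell. Inside cluster 11 the differences were smaller, with log2 ratios of -1.04 for Gzmd and -0.33 for Gzme. Gzmd and Gzme are close copies, and 1.70% of the 90-base stretches in the last 500 bases of the Gzmd transcript also occur in Gzme. Between Gzmc and the other granzymes of that cluster no such stretch was shared.

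Gzma, the most abundant granzyme of resting NK cells, averaged 106 UMIs per 10,000 in fasted cells and 73.3 in ad libitum cells, a log2 ratio of 0.53 (0.44 to 0.54). Gzmb averaged 34.9 in fasted cells and 43.7 in ad libitum cells, a log2 ratio of -0.32 (-0.58 to -0.47). Prf1, which encodes the pore-forming protein perforin, averaged 2.21 in fasted cells and 3.71 in ad libitum cells, a log2 ratio of -0.72 (-1.31 to -0.96). Fasl, a death receptor ligand, was the granule-list gene that was higher past 2-fold, at 1.66 in fasted cells and 0.69 in ad libitum cells. Killing genes thus did not move in 1 direction: the abundant Gzma and Gzmb stayed within 1.5-fold, and the differences past 2-fold lay in granzymes C, D, E and G, which were lower, and in Fasl, which was higher.

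**Figure D3:**
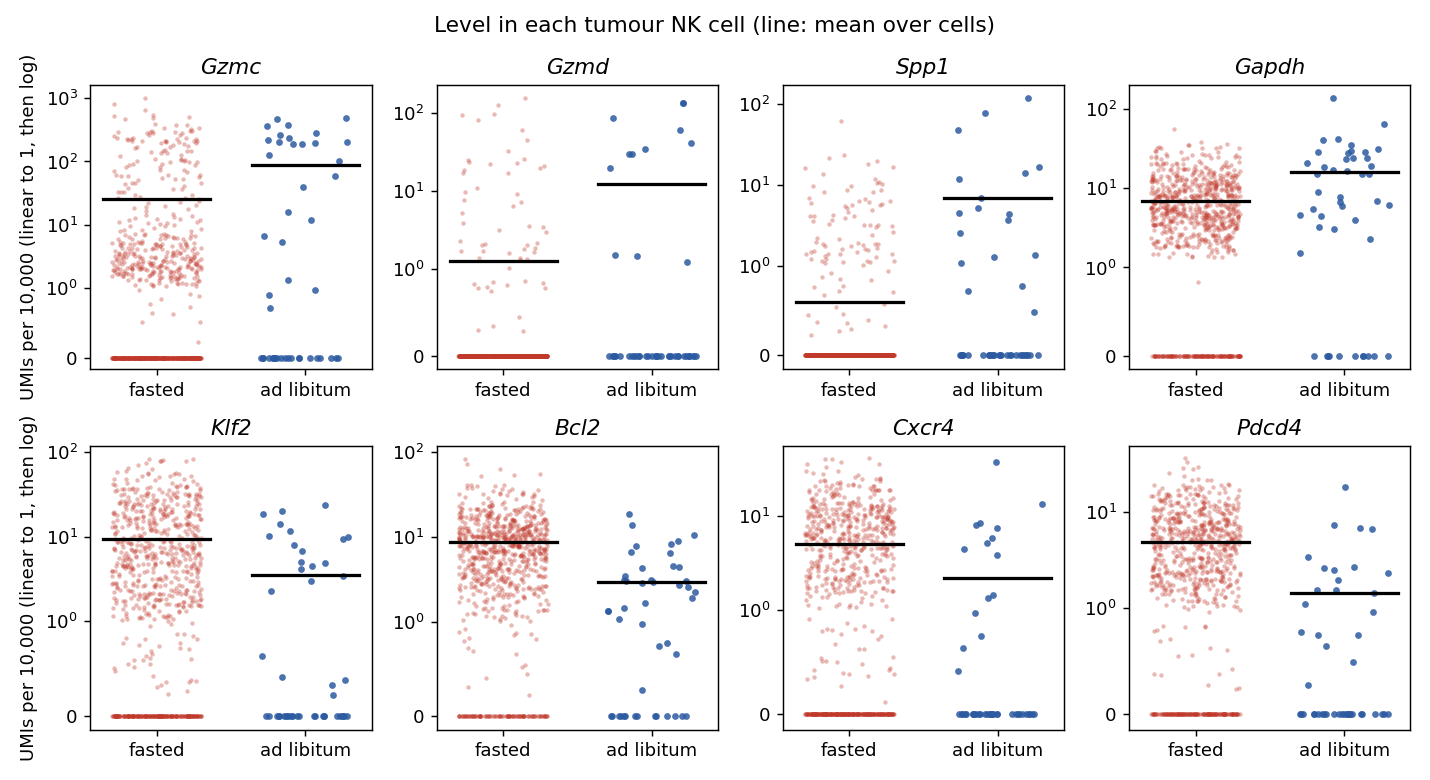
Level in each cell (UMIs per 10,000, linear to 1 and logarithmic above) of 8 genes, with fasted cells left of ad libitum cells and a line at the mean over cells. Gzmc, Gzmd and Spp1 means rest on a minority of cells in both populations, whereas Bcl2 and Gapdh differ over much of the range.

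Spp1, which encodes the secreted matrix protein osteopontin, had the lowest ratio of the named genes. It averaged 0.59 UMIs per 10,000 in fasted cells and 6.94 in ad libitum cells, a log2 ratio of -3.34 (-3.94 to -3.67). It was detected in 99 fasted cells and 18 ad libitum cells, and 1 ad libitum cell held 44.8% of that population's UMIs. Cluster 11 gave 84.9% of the ad libitum mean, and within cluster 11 the level was 2.95 in fasted cells and 30.1 in ad libitum cells. Unlike Gzmc, Spp1 therefore also differed inside cluster 11. In cells of 2000 to 10000 UMIs its log2 ratio was -0.48.

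Ifitm2, an interferon-inducible membrane protein, averaged 0.99 UMIs per 10,000 in fasted cells and 4.15 in ad libitum cells (log2 ratio -1.97). It was a leading gene of cluster 11, where it averaged 4.84 in fasted cells and 6.19 in ad libitum cells. Macrophage-marked cells also carried Ifitm2, in 75.8% of them after thinning, and the macrophage list summed to 11.9 in fasted cells and 21.3 in ad libitum cells, with 0 of 15 markers at 0 UMIs in fasted cells and 1 in ad libitum cells. Without cells that carried at least 4 markers of another type, the log2 ratio of Ifitm2 was -2.38. The interferon-induced list had 31 measured members, of which 9 were higher, 22 lower, 0 higher past 2-fold and 3 lower past 2-fold, with a median of -0.17. Isg15, a ubiquitin-like interferon-induced protein, averaged 4.76 in both populations. The 3 members lower past 2-fold were Ifitm2, Ifi44 (0.51 in fasted cells and 1.56 in ad libitum cells) and Ly6a (1.83 in fasted cells and 4.21 in ad libitum cells).

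The other genes of the lowest 15 were detected at few UMIs. Adam8, a cell-surface metalloprotease, averaged 0.16 in fasted cells and 0.81 in ad libitum cells (log2 ratio -1.80). Fnip1, a partner of the tumour suppressor folliculin in nutrient sensing, averaged 0.17 in fasted cells and 0.72 in ad libitum cells (log2 ratio -1.62). Zbtb32, a zinc finger repressor needed for proliferative bursts of NK cells, averaged 0.20 in fasted cells and 0.70 in ad libitum cells (log2 ratio -1.44). The rest were Olfr1369-ps1, Enpp5, Impa2, Stk26, Cd3d and Tmf1, with log2 ratios between -3.16 and -1.43 and 10 to 60 UMIs in ad libitum cells. After thinning, Olfr1369-ps1, Enpp5, Zbtb32 and Tmf1 were higher in fasted cells, with log2 ratios of 1.05, 0.44, 0.18 and 0.06. For Cd3d, a T cell receptor subunit, 70.0% of the 20 ad libitum UMIs came from 1 cell.

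Glycolytic genes were lower in fasted cells. Of 9 measured members of a list of 19 glycolysis genes, 8 were lower and 1 was higher, and 2 were lower past 2-fold. Their median log2 ratio was -0.97, against 0.01 over all measured genes. Among all measured genes 49.5% were lower, and 5.07% were lower past 2-fold. The summed list averaged 24.3 UMIs per 10,000 in fasted cells and 48.1 in ad libitum cells. Single cells had a median sum of 19.1 in fasted cells (lowest 0, highest 136) and 30.6 in ad libitum cells (lowest 0, highest 206). The middle of the ad libitum cells therefore lay above that of the fasted cells, while the ranges overlapped.

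Gapdh (chromosome 6, 125161715 to 125166467), the glyceraldehyde-3-phosphate dehydrogenase of glycolysis, averaged 6.82 UMIs per 10,000 in fasted cells and 16.2 in ad libitum cells. Its log2 ratio was -1.23 (-0.998 to -0.818), and its median over cells was 4.88 in fasted cells and 7.30 in ad libitum cells. Aldoa, the aldolase that splits fructose bisphosphate, averaged 4.23 in fasted cells and 8.55 in ad libitum cells (log2 ratio -0.997, -1.09 to -0.848). Ldha, which converts pyruvate to lactate, averaged 3.48 in fasted cells and 6.55 in ad libitum cells (log2 ratio -0.89, -1.16 to -0.92). Gpi1, Tpi1, Eno1, Pgam1 and Pkm were lower as well, with log2 ratios from -1.05 to -0.61, and Pfkp was at 0.50. These enzymes thus lay lower from the isomerase step to lactate, with Pfkp, the platelet-type phosphofructokinase gene, the only measured member that was higher. Refed cells averaged 14.8 for Gapdh, close to the ad libitum level.

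The glycolysis median depended on which cells were compared. It was -0.26 in cells of 2000 to 10000 UMIs, -0.18 within cluster 7 and -0.49 within cluster 11. Without clusters 7 and 11 it was -0.98, in 696 fasted cells and 21 ad libitum cells.

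Genes of other energy pathways differed less. All 38 oxidative phosphorylation genes of the list were measured, 23 of them higher and 15 lower in fasted cells, 0 past 2-fold in either direction, with a median of 0.05. The summed list averaged 126 UMIs per 10,000 in fasted cells and 124 in ad libitum cells. Of 9 measured fatty acid oxidation genes, 3 were higher and 6 were lower, with 0 past 2-fold and a median of -0.14. Cpt1a, which imports fatty acids into mitochondria, averaged 0.15 in fasted cells and 0.40 in ad libitum cells, below the measured level. Only 6 ad libitum UMIs stood behind it, and the counting interval ran from -0.79 to 1.88, so a difference in either direction was not detectable at this depth.

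**Figure D4:**
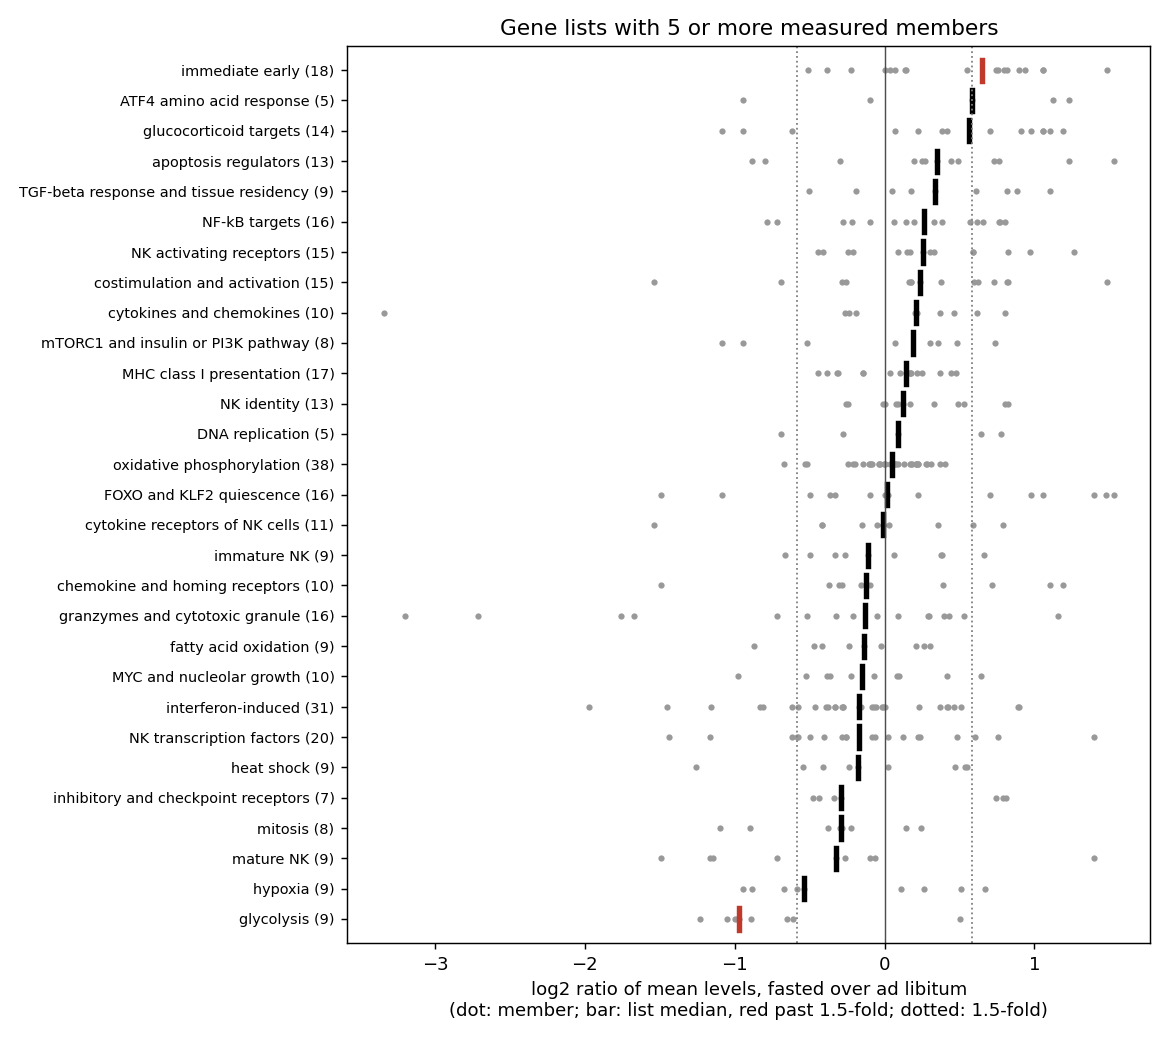
Log2 ratio of mean levels (horizontal axis, fasted over ad libitum) for the lists with 5 or more measured members, whose number stands in brackets. Grey points are members, bars are list medians and red bars are past 1.5-fold: 0.65 for immediate early genes and -0.97 for glycolysis.

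Among genes higher in fasted cells were Klf2, Bcl2, Pdcd4, Cxcr4 and Tsc22d3, which act in quiescence, survival, translation, trafficking and the glucocorticoid response. Of 16 measured FOXO and KLF2 quiescence genes 10 were higher and 6 lower, 4 higher and 2 lower past 2-fold, with a median of 0.02. That median depended on the processing: it was 0.64 after thinning, 0.98 at a minimum level of 1 and 0.54 with summed counts. It was 0.16 in cells of 2000 to 10000 UMIs and 0.10 within cluster 7. Below 0 it was -0.16 without the deepest cells and -0.06 without cells of other types. No direction is therefore shown for the list. Klf2 (chromosome 8, 72319033 to 72321656), a transcription factor that keeps lymphocytes quiescent and drives exit receptors, averaged 9.39 UMIs per 10,000 in fasted cells and 3.50 in ad libitum cells. Its log2 ratio was 1.40 (1.38 to 1.95), and single cells ranged from 0 to 83.4 with a median of 3.43 in fasted cells, and from 0 to 23.3 with a median of 0 in ad libitum cells. After thinning it was detected in 48.5% of fasted cells (44.9% to 52.2%) and 21.9% of ad libitum cells (9.28% to 40.0%). Klf13, a related factor, averaged 1.65 in fasted cells and 0.53 in ad libitum cells (log2 ratio 1.48, 0.53 to 1.59). S1pr1, an exit receptor that Klf2 drives, averaged 0.18 in fasted cells and 0.68 in ad libitum cells, from 61 fasted and 6 ad libitum UMIs, and a difference was not detectable at this depth.

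Bcl2 (chromosome 1, 106538178 to 106714274), which protects lymphocytes from apoptosis, averaged 8.75 UMIs per 10,000 in fasted cells and 2.96 in ad libitum cells. Its log2 ratio was 1.53 (1.26 to 1.82). The median cell held 6.76 in the fasted population (lowest 0, highest 84.6) and 1.54 in the ad libitum population (lowest 0, highest 18.8), so the difference lay across the cells and not in a few of them. It was 0.68 within cluster 11, where the levels were low, and within cluster 7 the means were 10.3 in fasted cells and 3.66 in ad libitum cells. The pro-apoptotic Bcl2l11, which encodes Bim, was also higher, at 4.60 in fasted cells and 2.73 in ad libitum cells (log2 ratio 0.73, 0.50 to 1.07). Of 13 measured apoptosis regulators 10 were higher and 3 lower, 2 higher past 2-fold (Bcl2 and Xiap) and 0 lower past 2-fold. Among all measured genes 50.5% were higher, and 3.56% were higher past 2-fold.

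Pdcd4 (chromosome 19, 53892231 to 53929860), a repressor of translation initiation that growth factor signalling degrades as a protein, averaged 4.86 UMIs per 10,000 in fasted cells and 1.40 in ad libitum cells. Its log2 ratio was 1.72 (1.37 to 2.12), with a median over cells of 3.26 in fasted cells and 0 in ad libitum cells. After thinning it was detected in 42.9% of fasted cells (39.3% to 46.5%) and 18.8% of ad libitum cells (7.21% to 36.4%). Within cluster 7 it averaged 6.81 in fasted cells and 0.45 in ad libitum cells, and within cluster 11 it averaged 2.19 in fasted cells and 0.93 in ad libitum cells. Pdcd4 was thus higher in fasted cells in each of the clusters with at least 5 cells of both populations.

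Cxcr4 (chromosome 1, 128588199 to 128592293), the chemokine receptor that holds NK cells in the bone marrow, averaged 5.11 UMIs per 10,000 in fasted cells and 2.18 in ad libitum cells (log2 ratio 1.19, 1.63 to 2.50). Tsc22d3, which encodes the glucocorticoid-induced leucine zipper protein GILZ, averaged 4.12 in fasted cells and 1.87 in ad libitum cells (log2 ratio 1.10, 1.58 to 2.47). Their medians over cells were 2.32 and 2.77 in fasted cells and 0 for both genes in ad libitum cells. Refed cells averaged 1.62 for Cxcr4 and 1.55 for Tsc22d3, below the ad libitum means of both. Cxcr4 was among the leading genes of clusters 0 and 8, so its level and the shares of those clusters are not separate findings. Within cluster 7 it averaged 5.01 in fasted cells and 3.40 in ad libitum cells. In cluster 8 the means were 4.38 in fasted cells and 3.52 in 4 ad libitum cells. In cluster 0 they were 7.02 in fasted cells and 3.19 in 3 ad libitum cells. Cluster 11 held little Cxcr4, with 0.25 in fasted cells and 0.22 in ad libitum cells.

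Among all measured genes 50.5% were higher in fasted cells, and 3.56% were higher past 2-fold. Of 14 measured glucocorticoid targets 11 were higher and 3 lower, with a median of 0.56. Past 2-fold, 4 targets were higher and 1 was lower. The 4 were Tsc22d3, Cxcr4, Dusp1 and Btg2, and Dusp1 and Btg2 are also counted among the immediate early genes below. The list median was 0.36 with equal cluster weights, 0.09 within cluster 11 and 0.95 without each gene's highest cell. Zfp36l2, an RNA-binding protein that destabilises transcripts, averaged 13.9 in fasted cells and 7.36 in ad libitum cells (log2 ratio 0.91). Members that differed the other way were Sesn1, Ddit4 and Sgk1, with log2 ratios of -1.08, -0.94 and -0.62. The summed list had a median of 85.5 UMIs per 10,000 per fasted cell and 53.4 per ad libitum cell.

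**Figure D5:**
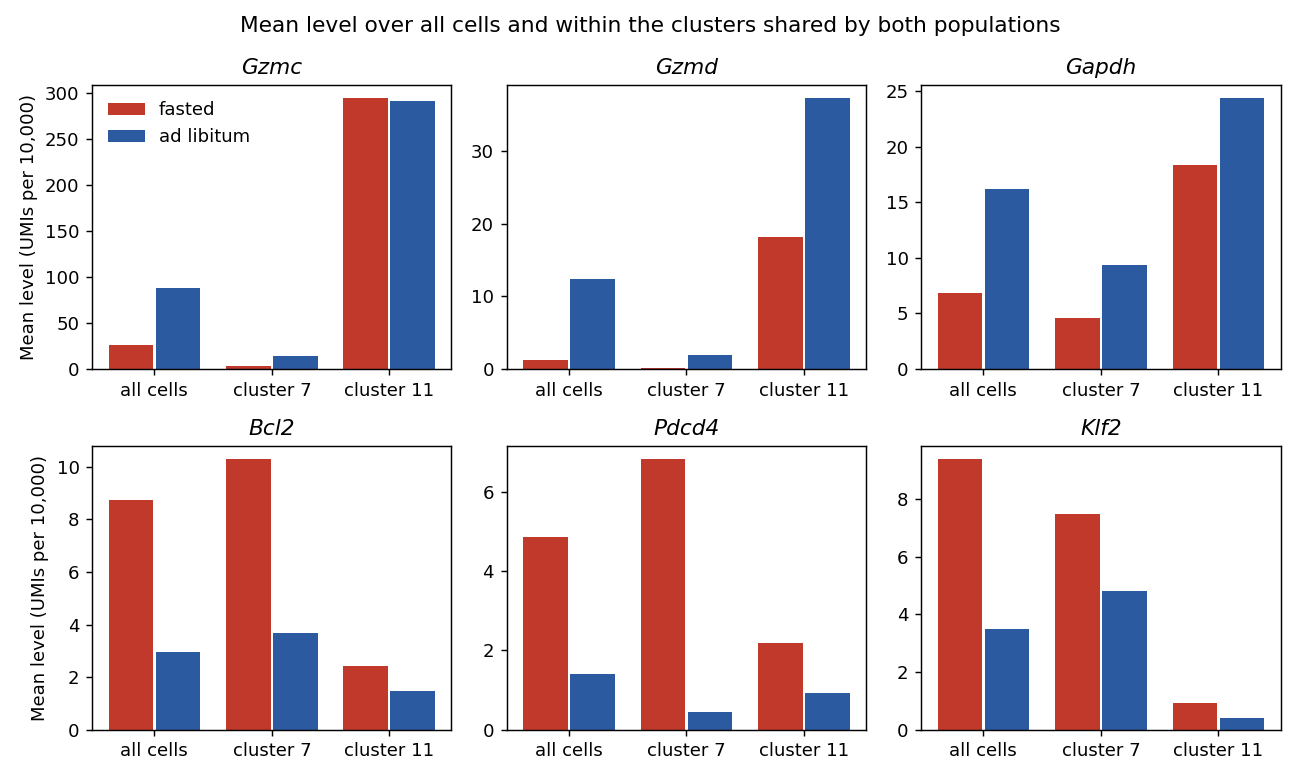
Mean level (UMIs per 10,000) over all cells, within cluster 7 (54 fasted and 16 ad libitum cells) and within cluster 11 (51 fasted and 9 ad libitum cells), with fasted bars left of ad libitum bars. Gzmc differs over all cells and is at 294 in fasted cells and 292 in ad libitum cells within cluster 11, whereas Bcl2 and Pdcd4 are higher in fasted cells in both clusters.

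Immediate early genes, which respond within minutes to receptor signals, were higher in fasted cells as a list. Among all measured genes 50.5% were higher, and 3.56% were higher past 2-fold. Of 18 measured members of the list 15 were higher and 3 lower, with a median log2 ratio of 0.65. Past 2-fold, 3 members were higher and 0 lower. Those past 2-fold were Egr1 (1.75 in fasted cells and 0.56 in ad libitum cells), Dusp1 (4.94 in fasted cells and 2.32 in ad libitum cells) and Btg2 (8.18 in fasted cells and 3.88 in ad libitum cells). Junb, an AP-1 subunit and the most abundant member, averaged 26.5 in fasted cells and 15.2 in ad libitum cells (log2 ratio 0.79, 0.48 to 0.70). Fos, another AP-1 subunit, was at 3.84 in fasted cells and 3.75 in ad libitum cells, so not every member differed. The median was 0.56 in cells of 2000 to 10000 UMIs, 0.31 within cluster 7, 0.34 within cluster 11, 0.32 with equal cluster weights and 0.35 with no minimum level.

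Of 5 measured genes of the 19 on the ATF4 amino acid response list, 3 were higher and 2 lower, with a median of 0.58. That median depended on the level cut, at 0.06 with a minimum level of 0.2 and 0.12 with no minimum level. It was 0.29 in cells of 2000 to 10000 UMIs and 0.74 without each gene's highest cell. Slc3a2, the heavy chain of amino acid transporters, averaged 4.26 in fasted cells and 1.90 in ad libitum cells (log2 ratio 1.13, 0.36 to 0.88), and Ddit3, the stress transcription factor CHOP, averaged 0.97 in fasted cells and 0.36 in ad libitum cells. Klhl6, a lymphoid ubiquitin ligase adaptor, averaged 1.65 in fasted cells and 0.34 in ad libitum cells (log2 ratio 1.98, 0.97 to 2.20), and within cluster 11 its log2 ratio was 0.02. Zc3h12a, the RNase Regnase-1 that limits inflammatory transcripts, averaged 1.09 in fasted cells and 0.31 in ad libitum cells (log2 ratio 1.54). The other genes of the highest 15 were Kctd12, Klf10, Dnajb4, Rela, Coq10b, Kin and Elmsan1, with log2 ratios from 1.59 to 2.21 and 7 to 38 UMIs in ad libitum cells.

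The highest ratios among the named genes belonged to genes of another cell type. S100a8 and S100a9, subunits of the neutrophil protein calprotectin, averaged 1.34 and 1.83 UMIs per 10,000 in fasted cells and 0.01 and 0.12 in ad libitum cells. S100a8 had 362 UMIs in fasted cells and 2 in ad libitum cells, and the counting interval of its log2 ratio ran from 2.20 to 7.12. In fasted cells, 1 cell held 36.7% of the S100a8 UMIs, and cluster 10 gave 86.4% of the mean. Cxcl2, a chemokine that myeloid cells make, averaged 5.45 in fasted cells and 0.98 in ad libitum cells, and cluster 10 gave 84.2% of the fasted mean. At least 4 of 14 neutrophil markers were detected in 6 of 801 fasted cells (0.75%) and 0 of 46 ad libitum cells, too few to set these shares apart. After thinning to 1500 UMIs, S100a8 was detected in 2.14% of 746 fasted cells and in 1 of 32 ad libitum cells (3.13%). The neutrophil list summed to 4.39 in fasted cells and 0.49 in ad libitum cells, and 13 of 14 markers were higher in fasted cells. There were 9 markers at 0 UMIs among the 571789 UMIs of ad libitum cells, and 0 markers among the 6178668 UMIs of fasted cells. These genes are therefore named here by the rule and are not read as NK genes.

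NK identity genes differed little. Of 13 measured NK identity genes 10 were higher and 3 lower in fasted cells, 0 past 2-fold in either direction, with a median of 0.12. Ncr1, the activating receptor NKp46, averaged 2.98 in fasted cells and 2.63 in ad libitum cells, and Il2rb, the IL-15 receptor beta chain, averaged 4.44 in fasted cells and 4.47 in ad libitum cells. The lineage factors Tbx21 and Eomes had log2 ratios of 0.12 and -0.25. Of 9 measured genes of mature NK cells 1 was higher (Klf2) and 8 lower, with 3 lower past 2-fold and a median of -0.32. The 3 were S1pr1, Prdm1, a transcriptional repressor that acts in terminally differentiated lymphocytes, and Ly6c2. S1pr1 rested on 61 fasted and 6 ad libitum UMIs and Prdm1 on 78 fasted and 7 ad libitum UMIs, and with summed counts their log2 ratios were -0.04 and 0.02. For Ly6c2 the log2 ratio of -1.14 turned to 0.46 with summed counts. The list median itself was 0.59 with equal cluster weights. Other maturation markers were near the limit of detection: Itgam averaged 0.46 in fasted cells and 0.50 in ad libitum cells, and Klrg1 averaged 0.14 in fasted cells and 0.31 in ad libitum cells. Cx3cr1, a chemokine receptor of mature cells, had 65 UMIs in fasted cells and 0 in ad libitum cells, where 0 counts allow up to 3 UMIs. Cluster 10, whose leading genes began with Cxcl2, Lyz2 and S100a9, gave 50.8% of its fasted mean. Cluster 7 gave 24.0%, cluster 8 gave 3.74% and cluster 0 gave 2.96%. After thinning, Cx3cr1 was detected in 21.2% of macrophage-marked cells and 1.07% of fasted cells. Its difference is therefore not read as one of NK maturation.

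Markers of group 1 innate lymphoid cells (ILC1), close relatives of NK cells, summed to 27.5 UMIs per 10,000 in fasted cells and 88.8 in ad libitum cells. Gzmc, itself on that list, made up nearly all of both sums. Other ILC1 markers were scarce: Itga1 averaged 0.13 in fasted cells and 0.14 in ad libitum cells, Cxcr6 averaged 0.03 in fasted cells and had 0 UMIs in ad libitum cells, and Zfp683 had 0 UMIs in both. Il7r, a receptor chain of ILC1 and immature NK cells, averaged 0.33 in fasted cells and 0.02 in ad libitum cells, where all 4 UMIs came from 1 cell. At least 4 of 12 ILC1 markers were detected in 42 fasted cells (5.24%) and 6 ad libitum cells (13.04%).

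Of 10 measured cytokines and chemokines, Spp1 was lower past 2-fold in fasted cells and 0 were higher past 2-fold. Ifng, the main NK cytokine, averaged 4.48 in fasted cells and 3.23 in ad libitum cells, a log2 ratio of 0.46 (0.29 to 0.86). Ccl5 averaged 106 in fasted cells and 92.1 in ad libitum cells, a log2 ratio of 0.20, while the ratio of summed UMIs had an interval of 1.35 to 1.51, since the deep ad libitum cells held little Ccl5. Xcl1, which attracts dendritic cells, averaged 12.8 in fasted cells and 14.6 in ad libitum cells, and 46.1% of the ad libitum UMIs came from 1 cell. In all 6 were higher and 4 lower, and the list median was 0.21. Below the minimum level, the chemokine Ccl1 averaged 0.44 in fasted cells and 0.04 in ad libitum cells, from 803 fasted and 5 ad libitum UMIs.

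The lists of glycolysis and immediate early genes, picked out by their tumour medians, had smaller medians in the other tissues for the same members. For glycolysis the fasted over ad libitum median was -0.97 in tumour, -0.12 in spleen and -0.37 in bone marrow, and for immediate early genes it was 0.65 in tumour, 0.06 in spleen and 0.11 in bone marrow. Other lists did not all do so: the oxidative phosphorylation median was 0.05 in tumour, -0.21 in spleen and -0.37 in bone marrow. The FOXO and KLF2 quiescence median was 0.02 in tumour, 0.11 in spleen and 0.26 in bone marrow. These differences between tissues were not tested. At the level of genes, Tsc22d3 was higher by a log2 ratio of 1.10 in tumour and 1.31 in both spleen and bone marrow, and Cxcr4 by 1.19 in tumour, 0.97 in spleen and 0.80 in bone marrow. Klf2 had log2 ratios of 1.40 in tumour, 0.00 in spleen and -0.10 in bone marrow.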

How the data were processed

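The authors deposited a matrix of UMI counts per cell and gene, built with seqc per the labels' protocol and on mm10 per the submitters' processing notes. They also deposited hashtag calls, a tag list and cluster numbers. How hashtags were classified and cells clustered was not described by the labels. Columns of 11 repeated symbols were summed. Cells called doublets, which numbered 5606 of 13085 classified cells, and 33 cells without a call were left out. No doublet caller was run here. Each cell was scaled to 10000 UMIs, levels were means over cells, and log2 ratios used a pseudocount of 0.1 and genes at 0.5 or more in at least 1 population. Intervals at 95% were exact binomial or Poisson and cover counting error only. Loci came from GENCODE M21, and start regions from RefSeq (GRCm38.p6).

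Genes named were the 15 highest and 15 lowest past 2-fold whose binomial interval left out a ratio of 1 and which stayed past 1.5-fold with summed counts, without the highest cell of each gene and without cells marked as another type, as well as the 4 most abundant members of each list at most, and 26 set genes. Of the genes so chosen, 1 is not reported here. Gene models without a name were passed over, as were genes of antigen receptors, haemoglobin, the ribosome and the mitochondrial genome. Gene lists, populations and rules were chosen with earlier results of these data known. A planned set of 14 alternatives was run, and 4 were added after the data were seen: within cluster 7, within cluster 11, cells of 2000 or more UMIs, and without clusters 7 and 11. The measures were tested on simulated counts. Scripts ran in Python 3.11.15 with pandas 2.3.3, numpy 2.4.6, matplotlib 3.10.9 and scipy 1.17.1.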

Additional observations from a re-analysis of the deposited data

Results flagged for a closer look

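In 2 results the fasted population differed from the ad libitum population in opposite directions in tumour and in another tissue, and Cpt1a had ratios of opposite sign. The differences between tissues were not tested, and each rests on 1 population per feeding state.

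The share of cluster 7 was lower by 28.04 percentage points in tumour (a difference of -28.04), with 6.74% of fasted cells and 34.8% of ad libitum cells. It was higher by 3.835 points in spleen (7.55% of fasted cells and 3.71% of ad libitum cells) and by 19.13 points in bone marrow (25.7% of fasted cells and 6.61% of ad libitum cells). Cluster 7 cells were shallow, and the share of cells with fewer than 2000 UMIs went the same way in each tissue. It was 9.74% of fasted and 30.4% of ad libitum cells in tumour, 11.5% and 8.98% in spleen, and 23.5% and 8% in bone marrow. The part of depth in these shares was not tested. Gzmc had a log2 ratio of -1.756 in tumour and 1.061 in bone marrow, where the level was 1.602 UMIs per 10,000 in fasted cells and 0.72 in ad libitum cells. Both bone marrow levels were far below the tumour means of 25.9 and 87.8, and the spleen populations lay between 1.21 and 1.46. The fasted bone marrow mean rests on 136 cells, and no counting interval is given for it. Cpt1a had a log2 ratio of -1.009 in tumour, where 6 ad libitum UMIs were counted, and of 1.207 in spleen and 1.386 in bone marrow. With summed counts the tumour value of Cpt1a was 0.21, with a counting interval of -0.79 to 1.88, so no direction in tumour is shown.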

How the results depend on the processing

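Counts of genes past 2-fold in fasted cells against ad libitum cells, 106 higher and 151 lower, changed by more than 1.5 times under most alternatives, and the cause was not tested. Higher and lower counts were 34 and 42 with summed counts, 380 and 395 after thinning, 331 and 466 in cells of 2000 to 10000 UMIs, 166 and 235 without cells of other types, 314 and 270 with equal cluster weights, 268 and 22 without each gene's highest cell, 211 and 302 without the deepest cells, 215 and 303 with totals that left out mitochondrial, ribosomal protein and rRNA-like genes, 13 and 25 at a pseudocount of 0.5, 343 and 373 at a minimum level of 0.2, 43 and 53 at 1, and 458 and 433 with no minimum. They were 971 and 881 within cluster 7, 61 and 74 within cluster 11, and 227 and 386 without clusters 7 and 11, and 86 were lower in cells of 2000 or more UMIs. Leaving out each gene's highest cell moved the median of all genes to 0.25, since 1 of 46 cells weighs more than 1 of 801.

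The glycolysis median, -0.97, was -0.26 in cells of 2000 to 10000 UMIs and -0.18 within cluster 7. It was also short of 1.5-fold with equal cluster weights (-0.43) and within cluster 11 (-0.49). The immediate early median, 0.65, was short of 1.5-fold with equal cluster weights (0.32), no minimum level (0.35), cells of 2000 to 10000 UMIs and no deepest cells (0.56 each), and within clusters 7 (0.31) and 11 (0.34). Both kept their sign under all 18 alternatives. Genes named as highest or lowest were chosen to stay past 1.5-fold with summed counts, without their highest cell and without other types. Those alternatives could therefore not turn them, and a pseudocount or minimum level cannot turn any gene. With that limit, 34 of 39 named genes past 2-fold kept their direction under every alternative other than the 4 added. Under those too, 24 did so. Those that turned were S100a9 (-0.036), Klf10 (-1.39), Elmsan1 (-0.034), Gzmc (0.012), Olfr1369-ps1 (1.17) and Ly6c2 (1.90) within cluster 11. Within cluster 7, Spp1 (0.49), Adam8 (0.65), Impa2 (0.63) and Ly6a (0.16) turned. After thinning, Olfr1369-ps1 (1.05), Enpp5 (0.44), Zbtb32 (0.18) and Tmf1 (0.058) did so, and in cells of 2000 to 10000 UMIs Olfr1369-ps1 (1.39) and Enpp5 (0.70). Olfr1369-ps1 was at 0.31 in cells of 2000 or more UMIs. Without clusters 7 and 11, Enpp5 (0.10), Cd3d (1.29) and Insig1 (0.45) turned. Ly6c2 was at 0.46 with summed counts, 1.13 without other types, 0.65 with equal cluster weights and 0.79 without its highest cell.

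In cells of 2000 or more UMIs, cluster 0 held 41.1% of fasted cells and 9.38% of ad libitum cells, and cluster 7 held 3.18% of fasted cells and 21.9% of ad libitum cells. In cells of 2000 to 10000 UMIs, fasted cells had 48.7% in cluster 0, 3.60% in cluster 7 and 0.69% in cluster 11, and ad libitum cells had 6.67% in cluster 0, 33.3% in cluster 7, 26.7% in cluster 8 and 6.67% in cluster 11. Without the deepest cells, cluster 11 held 2.54% of fasted cells and 8.33% of ad libitum cells. Depth limits genes with few of the 571789 ad libitum UMIs.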

Other observations

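Lists of at least 5 measured members not described above had medians within 1.5-fold, read beside a median of 0.01 over all genes. Of the 11 lists named here, 10 turned direction under at least 1 of 18 alternatives and hypoxia did not. All 17 genes of the MHC class I list were measured, 11 higher and 6 lower in fasted cells with 0 past 2-fold, and B2m, the shared light chain, averaged 36.3 in fasted cells and 40.1 in ad libitum cells. Of 9 TGF-beta response and tissue residency genes 7 were higher and 2 lower (median 0.34), with Rgs1, a brake on chemokine receptor signalling, at 18.8 in fasted cells and 12.3 in ad libitum cells. Of 16 NF-kB targets 11 were higher and 5 lower (median 0.26), and Ccl4, an inflammatory chemokine, averaged 20.7 in fasted cells and 11.8 in ad libitum cells. Of 15 activating receptor genes 11 were higher and 4 lower (median 0.25), and Klrk1, which encodes NKG2D, averaged 8.47 in fasted cells and 6.73 in ad libitum cells. Among 7 measured checkpoint receptor genes 3 were higher and 4 lower (median -0.29), and Klrc1, which encodes NKG2A, averaged 2.18 in fasted cells and 1.22 in ad libitum cells. The checkpoint median was 0.42 after thinning and 0.67 without clusters 7 and 11.

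Hypoxia genes had a median of -0.54, with 4 of 9 higher and 5 lower. Hilpda averaged 2.56 in fasted cells and 1.57 in ad libitum cells, while Mif, an inflammatory cytokine, averaged 3.03 in fasted cells and 4.89 in ad libitum cells. Of 10 genes of MYC and nucleolar growth 4 were higher and 6 lower (median -0.15), and Odc1, the first enzyme of polyamine synthesis, averaged 1.58 in fasted cells and 3.20 in ad libitum cells. Of 5 DNA replication genes 3 were higher and 2 lower (median 0.09), and of 8 mitosis genes 2 were higher and 6 lower (median -0.29). The mitosis median ranged from -0.81 with summed counts to 0.80 within cluster 7, and was 0.59 in cells of 2000 to 10000 UMIs. Heat shock genes had a median of -0.18, with Hspa5, the main chaperone of the endoplasmic reticulum, at 6.26 in fasted cells and 8.36 in ad libitum cells. Of 8 genes of the mTORC1 and insulin pathway 5 were higher and 3 lower (median 0.19), with Pik3r1, a regulatory subunit of PI3K, at 2.04 in fasted cells and 1.18 in ad libitum cells.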
